A study of Hydra vulgaris with 30 samples.

Results

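The comparison of UNC0379 with DMSO at 8 hours postamputation (hpa) was made in 6 libraries of regenerating *Hydra* tips, chosen by treatment and time from the 30 libraries of the study. All 6 came from the Ind-Pune strain of *Hydra vulgaris*, decapitated and left to regenerate until the tip was collected. The treated group was kept in UNC0379 (3 libraries) and the control group in its vehicle, 0.2% DMSO (3 libraries). The dose is 150 µM by the treatment label, while the protocol text prints 150 with mM as its unit. The strain is kept as a clonal culture, so that the libraries do not sample different genotypes, and separate cultures or animals are not stated for the libraries of a treatment. The p-values below then cover only the spread between these libraries, which may be technical. How long the polyps were kept in the inhibitor before the cut is not given for the sequenced libraries in the sources used here. The remaining 24 libraries hold the same treatments at 0, 3, 12 and 24 hpa, with 3 libraries in each group.

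*Hydra* is a freshwater cnidarian that rebuilds its head after decapitation. The wound closes first, and a head organizer then forms at the tip under the control of Wnt signalling, before tentacles and mouth become visible. UNC0379 is a small-molecule inhibitor of SETD8 (KMT5A), the methyltransferase that places a single methyl group on lysine 20 of histone H4. The comparison at 8 hpa asks which transcripts differ in level when this enzyme is inhibited during the hours in which the new organizer is being set up.

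Each value is a count of 3′ tags of polyadenylated RNA (QuantSeq), assigned to a transcript. The tips were taken as bulk tissue, in which fewer cells of a type and less RNA per cell cannot be told apart. Assigned reads numbered 368070, 557186 and 512399 in the UNC0379 libraries and 519467, 495256 and 811079 in the DMSO libraries. Of 51290 transcripts in the files, 17878 had a count at 8 hpa and 5046 were tested, and those tested held 97.1% of the assigned reads of this time point. Reads that did not align made up 43.9% to 69.0% of a library under UNC0379 and 22.8% to 50.9% in DMSO. The part of this difference in the results was not tested. The 3 libraries of a treatment were closer to each other than to the other treatment, with leading log2 distances of 1.18 to 1.55 within a treatment and 1.87 to 2.12 between them. At other times 3 libraries were taken to stand apart, a choice made after seeing the data. UNC0379 24 hpa replicate 3 had a correlation of 0.767 with the rest of its group, and UNC0379 0 hpa replicate 3 one of 0.893. DMSO 24 hpa replicate 3 had 98.2% of its reads not aligned, with a correlation of 0.936. UNC0379 24 hpa replicate 2, with a correlation of 0.87, was kept, so the choice followed no single limit. The 3 libraries that stood apart enter the 8 hpa comparison through the shared estimate of the spread. They also enter through the filter on low counts, which kept 5226 transcripts without them.

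None of the transcript identifiers, which begin with MSTRG or Sc4wPfr, could be matched to a gene name in the reference table used here. Genome positions are likewise not given for them here, and the labelled tissue could not be checked against markers. Names are therefore used only for 16 loci that the study's figures pair with an identifier, and of the other transcripts 4 are given by identifier.

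At 8 hpa, transcripts that fell under UNC0379 outnumbered those that rose. Of the 5046 tested, 438 (8.68%) differed at an adjusted p under 0.05 in edgeR's quasi-likelihood test, 114 higher (2.26%) and 324 lower (6.42%). The lower ones made up 74.0% of the calls. Without a correction for the number of tests, 884 transcripts had a p under 0.05. Over 2-fold changes were seen for 99 of the higher and 295 of the lower transcripts, over 4-fold for 34 and 132, and over 8-fold for 7 and 28. The median log2 fold change was 1.64 for the higher and -1.85 for the lower transcripts, against 0.01 for all transcripts tested. For 113 of the 114 and 320 of the 324, all 3 UNC0379 libraries lay on the same side of all 3 DMSO libraries, where 28.2% of all tested transcripts had groups that did not overlap. These shares follow in part from the test itself. The calls nearest the threshold had an adjusted p of 0.0499 on the inside, with a log2 fold change of -1.54, and of 0.0502 on the outside, with a log2 fold change of 1.36. The fit on the 6 libraries of 8 hpa alone called 230 higher and 413 lower, and the fit without the 3 libraries that stood apart called 221 and 427.

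**Figure D1:**
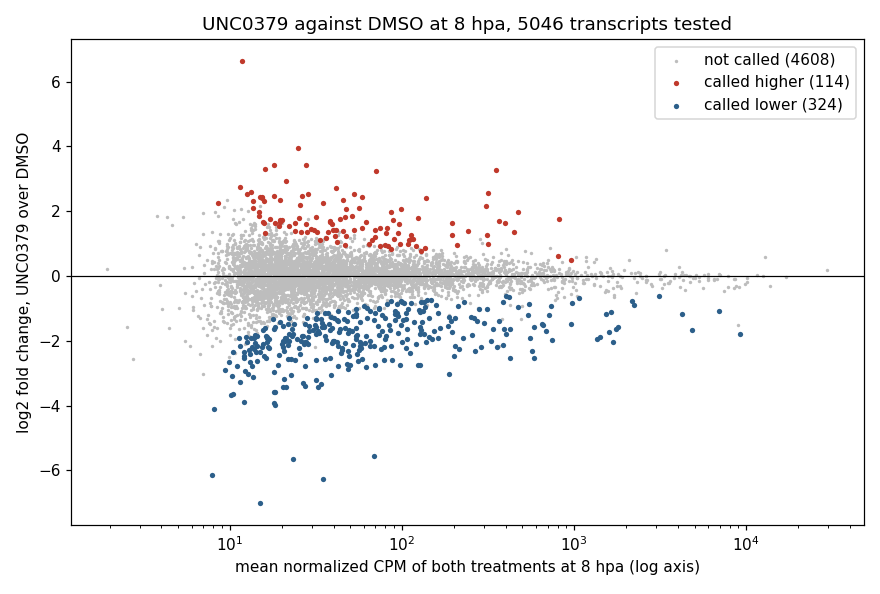
Log2 fold change of UNC0379 over DMSO at 8 hpa (vertical) against the mean normalized CPM of both treatments (horizontal, log axis), with a point for each of the 5046 transcripts tested. The 324 transcripts called lower (blue) include the highest DMSO mean of any call (14200 CPM), while the 114 called higher (red) have UNC0379 means of up to 1260 CPM.

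The lower transcripts included abundant ones. Levels are given as normalized CPM, counts scaled to a common TMM-adjusted library total. In DMSO, 135 of the 324 lower transcripts had a mean above 100 CPM and 22 a mean above 1000 CPM. Of the 114 higher ones, 13 and 0 did. A lower call favours a high DMSO level and a higher call a low one, so these counts follow in part from the choice. In the treatment where each set was high, the median was 79.7 CPM for the lower transcripts (DMSO) and 66.9 CPM for the higher ones (UNC0379). The transcripts called lower together took 11.3%, 10.9% and 11.1% of the assigned reads in the DMSO libraries and 4.59%, 4.42% and 4.45% in the UNC0379 libraries. Those called higher took 0.639%, 0.559% and 0.603% in DMSO and 1.81%, 1.70% and 1.76% under UNC0379. These sums describe transcripts chosen on the same counts.

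The most abundant of the lower transcripts, singled out after its values were seen, had 13600, 16400 and 12600 CPM in DMSO and 4230, 4300 and 3820 CPM under UNC0379. Its highest UNC0379 library lay below its lowest DMSO library by far more than the spread within either group. The log2 fold change was -1.78 (standard error 0.27, edgeR adjusted p = 1.16e-05), and at 3 and 12 hpa it was -0.68 and -0.46 (adjusted p = 0.154 and 0.486). The effect on this transcript at 8 hpa was not called different from that at 3 or at 12 hpa. The transcript with the highest UNC0379 level among the higher ones, chosen in the same way, had 1300, 1210 and 1280 CPM under UNC0379 and 414, 332 and 371 CPM in DMSO. Its log2 fold change was 1.76 at 8 hpa (standard error 0.17, edgeR adjusted p = 4.86e-09), and at 3 and 12 hpa it was 1.14 and 1.71 (adjusted p = 1.1e-05 and 1.64e-08).

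With the tested transcripts divided by abundance into 4 equal groups, the share called lower was 4.99%, 5.15%, 7.45% and 8.08% from the least to the most abundant group, and the share called higher was 2.38%, 1.98%, 2.70% and 1.98%. The precision rose in the same order, with median standard errors of 0.58, 0.44, 0.35 and 0.25 on the log2 scale, so that smaller changes could be called among abundant transcripts. By origin of the identifier, 54 of 1372 tested MSTRG transcripts (3.94%) and 270 of 3674 Sc4wPfr transcripts (7.35%) were lower, and 2.48% and 2.18% were higher. The 438 calls fell on 436 gene models, and only 2 models had 2 or more called transcripts, each pair in the same direction.

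Dickkopf-related protein 3 fell under UNC0379. Proteins of the dickkopf family are secreted, and in vertebrates several of them antagonize Wnt signalling. The counts here do not show whether this member acts on Wnt signalling in *Hydra*. The transcript (Sc4wPfr_504.g10351.t1) had 17.8, 12.3 and 13.0 CPM in the UNC0379 libraries and 76.1, 72.1 and 72.2 CPM in the DMSO libraries. All 3 treated libraries lay far below the controls, with means of 14.4 ± 3.00 and 73.5 ± 2.26 CPM (SD, n = 3). The log2 fold change was -2.36 (standard error 0.42, edgeR adjusted p = 0.000106), a 5.15-fold lower level. It passed the test under every alternative run, with log2 fold changes from -2.51 to -2.13. Over the course its mean DMSO level was 87.8, 88.9, 73.5, 73.6 and 101 CPM at the 5 times from 0 to 24 hpa. The control levels at 8 and 12 hpa were alike, with DMSO libraries from 53.7 to 89.9 CPM at 12 hpa. The transcript was also called lower at 3, 12 and 24 hpa. Its log2 fold changes there were -2.69, -1.66 and -2.24 (edgeR adjusted p = 1.67e-05, 0.00307 and 0.000344), against -0.66 at 0 hpa (adjusted p = 0.334). Its effect at 8 hpa was not called different from that at 3 or at 12 hpa.

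Brachyury protein-like had a higher mean under UNC0379 that did not pass the test. It is named after Brachyury, a T-box transcription factor that marks the head organizer of *Hydra*. It is not known to be *Brachyury1*, the gene that the study followed by in situ hybridization. For *Brachyury1* the study reported a weaker and smaller signal under the inhibitor at all regeneration times stained. The transcript (Sc4wPfr_489.2.g16698.t1) had 27.9, 38.5 and 29.7 CPM under UNC0379 and 25.4, 6.55 and 12.7 CPM in DMSO. The groups did not overlap, but 1 DMSO library lay just under the lowest treated one, and the DMSO mean of 14.9 had an SD of 9.59 CPM (n = 3). The log2 fold change was 1.11 (standard error 0.46, edgeR adjusted p = 0.156). It stayed between 0.83 and 1.63 under the alternatives and passed the threshold in none of them. At 0, 3, 12 and 24 hpa the log2 fold changes were 2.16, 1.55, 0.30 and -0.76. None of these passed the test (edgeR adjusted p = 0.0966, 0.0741, 0.886 and 0.572). The transcript was also among those called higher in DMSO at 12 against 0 hpa.

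NHL repeat-containing protein 2, named after a family of proteins that carry NHL repeats, overlapped between the treatments. Its transcript (Sc4wPfr_433.g11169.t1) had 17.8, 14.0 and 37.2 CPM under UNC0379 and 23.4, 61.2 and 25.3 CPM in DMSO. The highest treated library lay above the lowest controls, and the log2 fold change was -0.61 (standard error 0.49, edgeR adjusted p = 0.615).

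The other 13 loci did not pass the filter on low counts. Villin-1, an actin-bundling protein in vertebrates, had 10 counts under UNC0379 and 11 in DMSO, and the ubiquitin ligase rnf213-alpha had 1 and 1. The Wnt receptor frizzled5/8 had 0 counts under UNC0379 and 2 in DMSO, and Rap1 GTPase-activating protein 1 had 1 and 0. The remaining 9 loci had 0 counts in all 6 libraries, which by counting error alone allows up to 0.919 CPM of uniquely assigned reads. Of these, 7 have more than 1 annotated transcript, and reads shared by transcripts would be recorded as ambiguous, so that this is no limit on the level of the gene. They include N-lysine methyltransferase KMT5A-A, the name of the enzyme that UNC0379 inhibits, a neurogenic locus notch homolog protein 1-like, chromodomain-helicase-DNA-binding protein 1 and DNA topoisomerase 2-alpha. A 3′ tag that falls outside the annotated transcript end is not counted for it, so a count of 0 does not show that the gene was silent.

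Both transcripts printed for the largest rise had few or no counts in DMSO. MSTRG.21381.4 had 10, 12 and 13 counts in the UNC0379 libraries and 0 in each DMSO library. At 23.5 ± 2.27 CPM (SD, n = 3) it lay 13.7-fold above the level of 3 counts over the DMSO group, and the 95% counting interval of the ratio began at 10.5 (edgeR adjusted p = 8.6e-05). Sc4wPfr_1011.g26313.t1 had 38.1, 54.3 and 48.3 CPM under UNC0379 and 3.90, 0 and 3.80 CPM in DMSO. The log2 fold change was 3.97 (standard error 0.65, edgeR adjusted p = 3.25e-05).

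Both transcripts printed for the largest fall were nearly uncounted under UNC0379. Sc4wPfr_1185.g18738.t1 had 11, 17 and 25 counts in DMSO and 0 in each UNC0379 library. Its level of 30.1 ± 7.96 CPM in DMSO (SD, n = 3) lay 15.1-fold above the level of 3 counts over the treated group, and the 95% counting interval of the ratio began at 11.8 (edgeR adjusted p = 0.000118). Sc4wPfr_32.g14470.t1 had 36, 29 and 58 counts in DMSO and 0, 1 and 0 under UNC0379. The ratio of the normalized sums was 105, with a 95% counting interval from 18.5 to 4180 (edgeR adjusted p = 6.08e-08). These 4 were chosen for the largest changes among transcripts whose groups do not overlap, so that their separation is part of the choice.

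**Figure D2:**
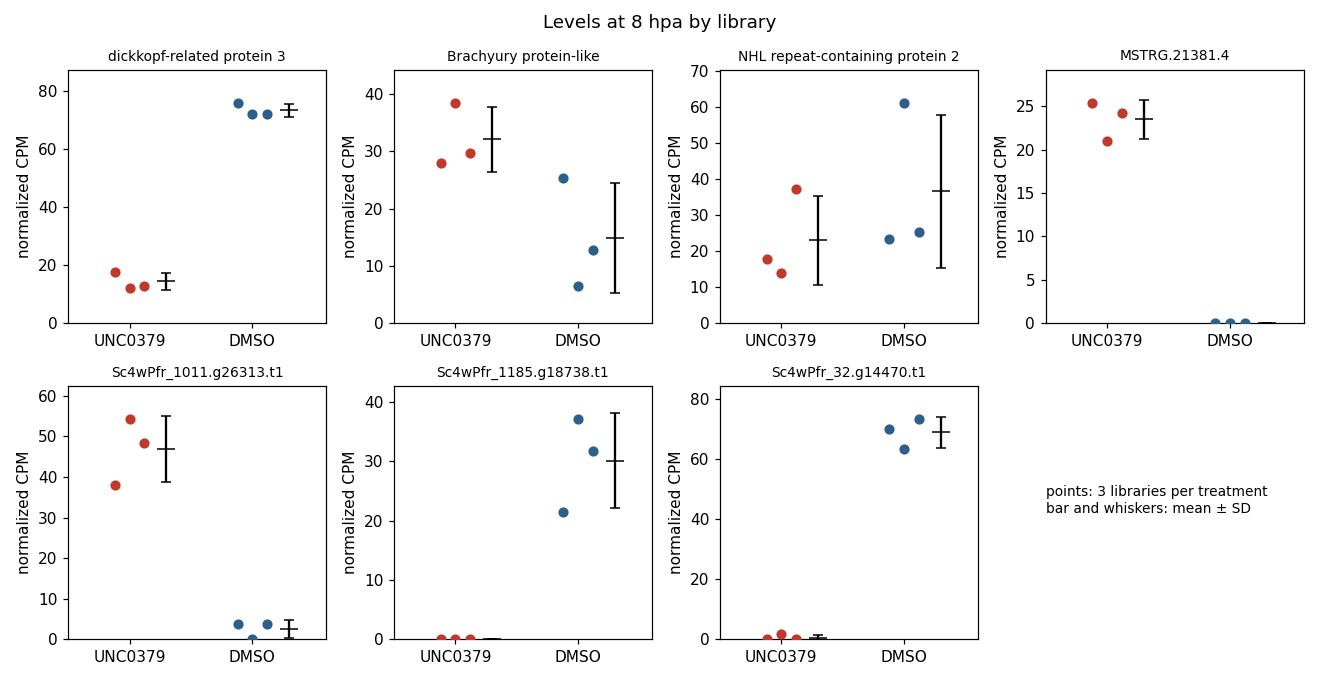
Normalized CPM at 8 hpa in each of the 3 UNC0379 (red) and 3 DMSO (blue) libraries, with the mean ± SD beside them, for 3 loci with names and 4 transcripts given by identifier. Only NHL repeat-containing protein 2 has groups that overlap, and Brachyury protein-like has 1 DMSO library at 25.4 CPM just under the treated ones.

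The pair that rose was chosen on its values at 8 hpa, and its effects at 8 and 3 hpa were not called different (edgeR adjusted p = 1 for each). Under UNC0379, MSTRG.21381.4 had means of 0.687, 11.9, 23.5, 13.5 and 9.88 CPM at the 5 times from 0 to 24 hpa, and in DMSO its mean stayed at or under 0.535 CPM. Sc4wPfr_1011.g26313.t1 had UNC0379 means of 5.70, 29.7, 46.9, 16.2 and 8.35 CPM at the same times. Both had adjusted p under 0.05 at 3 and 12 hpa too, with log2 fold changes of 3.73 and 4.0 for the former and 3.33 and 3.49 for the latter.

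The pair that fell had its large levels in DMSO only from 8 hpa on. Sc4wPfr_1185.g18738.t1 had DMSO means of 5.85, 1.52, 30.1, 33.2 and 34.3 CPM at the 5 times from 0 to 24 hpa, and its UNC0379 mean did not exceed 4.12 CPM at any of the 5 times. Sc4wPfr_32.g14470.t1 had DMSO means of 11.2, 10.8, 69.0, 58.9 and 63.5 CPM at these times, against 0.584, 10.4 and 22.9 CPM under UNC0379 at 8, 12 and 24 hpa. At 3 hpa the UNC0379 effect on these transcripts did not pass the test (adjusted p = 0.599 and 0.177), and at 12 hpa it did (adjusted p = 0.000592 and 0.000173). For Sc4wPfr_32.g14470.t1 the difference between the effects at 8 and 3 hpa was -4.46 on the log2 scale (standard error 1.35), which did not pass the test over all transcripts (adjusted p = 0.535).

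**Figure D3:**
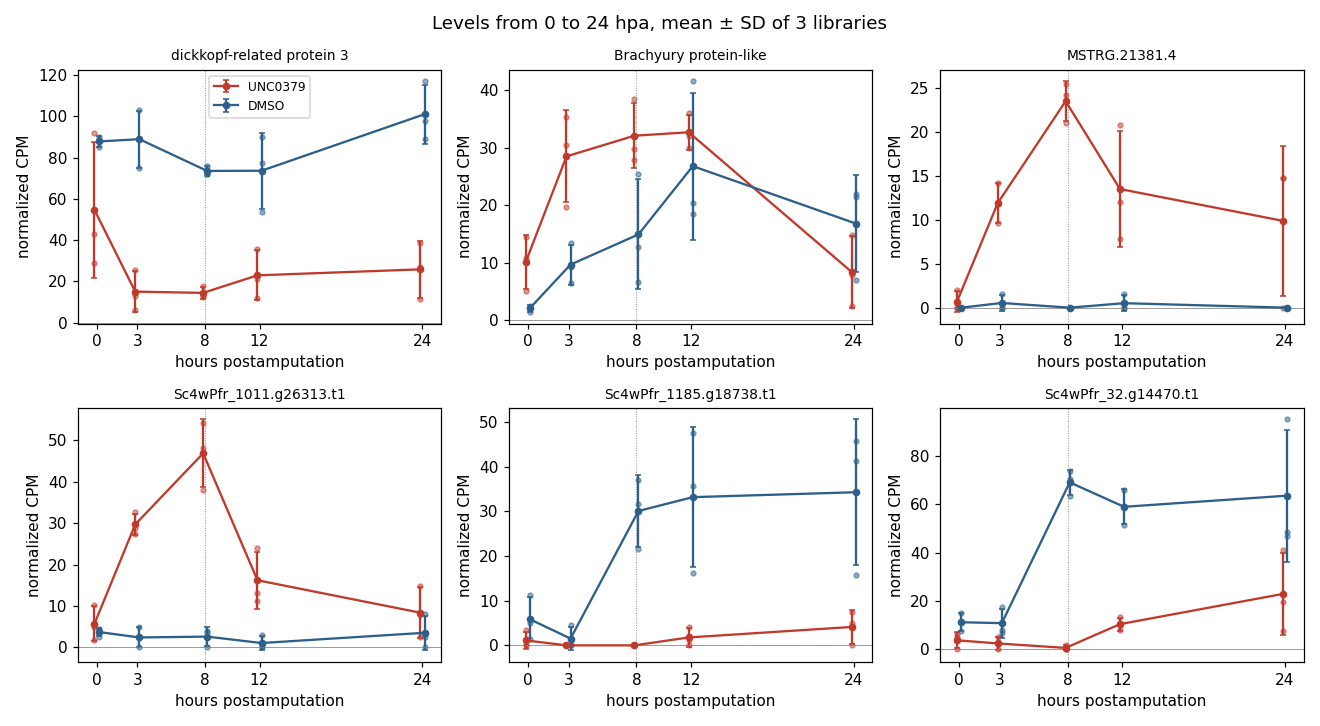
Normalized CPM against hours postamputation for 6 of the transcripts, as points for each library and means ± SD of 3 libraries under UNC0379 (red) and in DMSO (blue). At 8 hpa (dotted line) MSTRG.21381.4 and Sc4wPfr_1011.g26313.t1 have their highest UNC0379 means (23.5 and 46.9 CPM), and Sc4wPfr_1185.g18738.t1 and Sc4wPfr_32.g14470.t1 have DMSO means of 30.1 and 69.0 CPM with almost none under UNC0379.

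Transcripts missing from a treatment were also counted over all 51290, tested or not. With a total of at least 10 counts at 8 hpa, 12 were counted under UNC0379 only (0.193% of 6221) and 26 in DMSO only (0.385% of 6746). Of these, 11 and 23 were counted in all 3 libraries of their treatment. All 12 and all 26 were counted in the missing treatment at another time, so that none was wholly absent from it over the course. A single count was enough for this. MSTRG.21381.4, for example, had 1 count in DMSO at 3 hpa and 1 at 12 hpa. Near absence from a treatment is therefore not excluded. Of the 12 and the 26 transcripts, 1 and 2 passed the filter for testing. These numbers moved with single libraries, from 5 to 40 under UNC0379 and from 7 to 58 in DMSO when any of the 6 was left out, and the DMSO libraries together were the deeper ones.

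The transcripts that changed at 8 hpa were compared with the same treatment at 3 and 12 hpa, the neighbouring times. These have treated and control libraries of their own, but all times share the filter and the estimate of the spread. Of the 324 lower transcripts, 223 (68.8%) were also called lower at 3 hpa and 192 (59.3%) at 12 hpa, where 5.47% and 4.91% of all tested transcripts were. These make 80.8% of the 276 calls at 3 hpa and 77.4% of the 248 at 12 hpa. Of the 114 higher transcripts, 52 (45.6%) were also called higher at 3 hpa and 42 (36.8%) at 12 hpa, against 1.61% and 1.33% of all tested, which make 64.2% of 81 and 62.7% of 67 calls. None was called in the opposite direction at 3 or 12 hpa. The median log2 fold change of the lower transcripts was -1.85, -1.75 and -1.45 at 8, 3 and 12 hpa, and that of the higher ones was 1.64, 1.11 and 0.91. Values at 8 hpa are the larger in part because the transcripts were chosen there.

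At all of 3, 8 and 12 hpa, 161 transcripts were lower and 33 were higher. A call at 8 hpa but at neither neighbour was made for 70 lower and 53 higher transcripts, of which 47 and 29 had an unadjusted p under 0.05 at 3 or 12 hpa. Over all 5 times, 61 lower and 44 higher transcripts were called at 8 hpa alone.

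**Figure D4:**
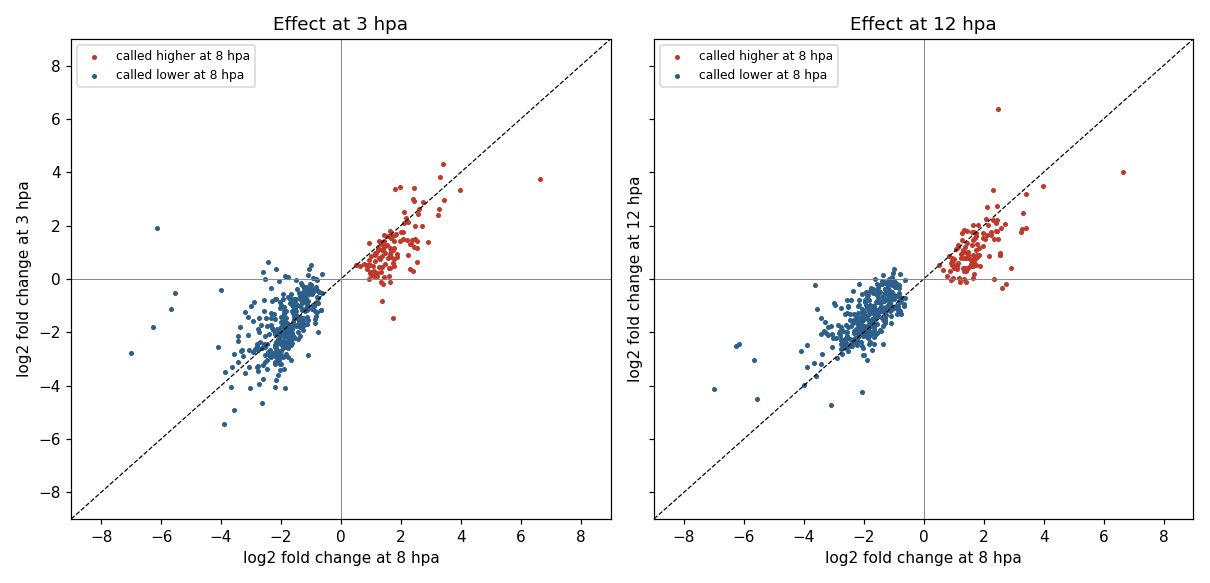
Log2 fold change of UNC0379 over DMSO at 3 hpa (left) and 12 hpa (right) against that at 8 hpa, with a point for each of the 114 higher (red) and 324 lower (blue) transcripts called at 8 hpa. The dashed line marks equal effects. The sign at 8 hpa was kept by 95.6% of the higher and 96.6% of the lower transcripts at 3 hpa, and by 93.9% and 98.5% at 12 hpa.

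Being called at 8 hpa and not at another time does not show a different effect, so the difference was tested as an interaction. The effect at 8 hpa differed from the mean of the effects at 3 and 12 hpa for 1 of 5046 transcripts (0.0198%), with 186 (3.69%) at an unadjusted p under 0.05. It differed from that at 3 hpa for 3 transcripts (0.0595%, 206 at an unadjusted p under 0.05) and from that at 12 hpa for 1 (0.0198%, with 3.55% at an unadjusted p under 0.05). The standard error of these differences for transcripts called at 8 hpa had a median of 0.46, 0.54 and 0.53 on the log2 scale, and DESeq2 called 20, 11 and 15. With any of the 18 libraries of 3, 8 and 12 hpa left out, edgeR called 0 to 2, 1 to 3 and 0 to 1. Without the 3 libraries that stood apart edgeR called 38, 21 and 30.

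The 5 calls fell on 4 transcripts, all of them lower at 8 hpa. The transcript that differed from the mean of both neighbours had 71.1, 64.8 and 79.9 CPM under UNC0379 and 189, 129 and 118 CPM in DMSO at 8 hpa, with log2 fold changes of 0.52, -1.01 and 0.36 at 3, 8 and 12 hpa (edgeR adjusted p = 0.0235 for the difference). It also differed from 3 hpa alone (adjusted p = 0.0347). Of the others that differed from 3 hpa, the first had log2 fold changes of 0.12, -1.87 and -1.92 and the second of 0.37, -2.15 and -1.55 at 3, 8 and 12 hpa (edgeR adjusted p = 0.00325 for each). The transcript that differed from 12 hpa had values of -0.75, -1.37 and 0.15 (edgeR adjusted p = 0.034).

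The effect at 8 hpa was less alike to that at 0 hpa, the moment of the cut. Of the lower transcripts 62 (19.1%) and of the higher ones 10 (8.77%) were also called at 0 hpa in the same direction, where 2.97% and 1.17% of all tested were, and the difference between the effects was called for 173 transcripts (3.43%). UNC0379 0 hpa replicate 3 stands apart, and without the 3 such libraries the shares were 23.4% and 11.3%, where 5.38% and 4.59% of all tested were. At 24 hpa 186 of the lower (57.4%) and 29 of the higher transcripts (25.4%) were called in the same direction, where 5.31% and 2.08% of all tested were, and 3 of the higher ones were called lower. Without the 3 libraries the shares were 47.5% and 19.0%, where 5.74% and 2.03% of all tested were, and 4 of the higher and 1 of the lower transcripts were called in the opposite direction.

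Transcripts that rise as the head regenerates in DMSO stood lower under UNC0379 at 8 hpa. They were taken from DMSO at 12 against 0 hpa, which uses none of the 6 libraries of 8 hpa and called 2.44% of the tested transcripts higher and 3.07% lower. Of 123 rising transcripts, 36 (29.3%) were called lower at 8 hpa and 9 (7.32%) higher, against 6.42% and 2.26% of all tested. Their median log2 fold change under UNC0379 was -0.50, with quartiles of -1.35 and 0.09, and 85 lay below 0 and 38 above, where the median over all tested was 0.01. Relative to the mean of DMSO at 0 hpa, the median of the 123 was 1.46, 1.41 and 1.49 in the DMSO libraries of 8 hpa and 0.93, 0.78 and 0.89 in the UNC0379 libraries, on the log2 scale. The groups did not overlap, and every treated library was still above 0. Both treatments are set against DMSO at 0 hpa here, so these values do not measure the rise under UNC0379 from its own 0 hpa level. Against UNC0379 at 0 hpa, the median edgeR log2 fold change under UNC0379 was 0.34. Between 0 and 8 hpa, 93 of the 123 were called in DMSO and 23 under UNC0379. The list was chosen with the DMSO libraries of 0 hpa, which favours DMSO, and UNC0379 0 hpa replicate 3 stood apart. Among the transcripts that rose in DMSO by 24 hpa (3.71% of those tested) and by 3 hpa (0.951%), the medians were -0.32 and -0.37. Of these, 43 of 187 (23%) and 9 of 48 (18.8%) were called lower, and 12 (6.42%) and 7 (14.6%) higher. Among those that fell by 24 hpa (5.35%) and by 3 hpa (1.51%), the medians were 0.07 and 0.26. Here 22 of 270 (8.15%) and 3 of 76 (3.95%) were called lower, and 17 (6.3%) and 6 (7.89%) higher. Without the 3 libraries that stood apart, the list from 12 hpa grew to 303 transcripts, of which 69 were called lower and 25 higher, with a median of -0.25, and 8.17% and 4.23% of all tested transcripts were called lower and higher in that fit.

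The 155 transcripts that fell in DMSO from 0 to 12 hpa were called in both directions at 8 hpa. There were 14 higher (9.03%) and 23 lower (14.8%), both above the 2.26% and 6.42% of all tested, with a median log2 fold change of 0.12. Relative to DMSO at 0 hpa their median was -0.91, -1.23 and -1.0 in the DMSO libraries and -1.01, -1.04 and -1.16 under UNC0379, and the groups overlapped. Without DMSO 8 hpa replicate 3 the number higher was 9, and without the 3 libraries that stood apart 41 of 296 were higher and 53 lower, where 4.23% and 8.17% of all tested were.

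**Figure D5:**
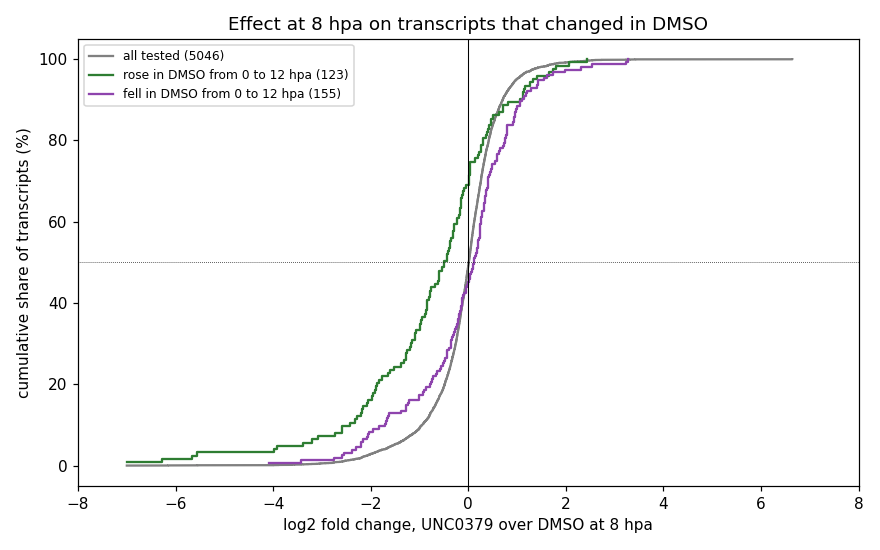
Cumulative share of transcripts (vertical, %) by log2 fold change of UNC0379 over DMSO at 8 hpa (horizontal) for all 5046 tested, the 123 that rose and the 155 that fell in DMSO from 0 to 12 hpa. The curve of the rising transcripts crosses 50% at -0.50, left of all tested (0.01), and that of the falling ones at 0.12.

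At 3 hpa the same 123 rising transcripts had a median log2 fold change of -0.02, with 6 called lower and 7 higher. The list was chosen for a rise by 12 hpa, and how far it had risen in DMSO by 3 hpa is not given here. Of the 36 called lower at 8 hpa, which had a median of -2.11, 6 were also lower at 3 hpa and 2 at 0 hpa. A test of the effect at 8 hpa against that at 3 hpa called 2 of the 123 transcripts, and 29 (23.6%) had an unadjusted p under 0.05, 27 of them in the direction of a lower effect at 8 hpa, against 4.08% of all tested in either direction. Most transcripts lowered by UNC0379 at 8 hpa did not belong to these lists: 36 of the 324 (11.1%) rose in DMSO from 0 to 12 hpa, 23 (7.10%) fell, and 265 (81.8%) did neither. Of the 114 higher transcripts, 9 (7.89%) rose, 14 (12.3%) fell and 91 (79.8%) did neither.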

How the data were processed

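Raw read counts per transcript were deposited by the authors, unpooled and with a file for each library. Trimmomatic, HISAT2 and HTSeq are the tools in the submitters' processing notes. Their versions and strand setting, the genome build and the annotation are not given in the sources consulted, so that overlapping and antisense transcripts cannot be told apart. For each assigned read of 8 hpa a further 1.06 to 1.18 were ambiguous and not counted, and 5 summary lines of HTSeq entered neither library sizes nor tests. Molecular identifiers are not mentioned, and intervals therefore cover counting error only. At this time point 1 count was worth 1.27 to 2.54 CPM.

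The tests used edgeR 4.0.16 in R 4.3.3 (filterByExpr on 10 groups, TMM, factors from 1.06 to 1.11 under UNC0379 and 0.948 to 1.02 in DMSO, a quasi-likelihood fit with robust estimation to all 30 libraries and a coefficient for each group). P-values were adjusted by Benjamini-Hochberg over 5046 tested transcripts, and 0.05 was the threshold. With 3 libraries against 3 an exact permutation test of a single transcript cannot go below 0.1. No 2 files were identical, and pairs within a treatment differed by more than sampling noise (chi-square per degree of freedom 1.75 to 2.87). The fit was tested on simulated data. Alternatives were DESeq2 1.42.0, limma-voom (limma 3.58.1), another normalization, filter and threshold, a replicate block, counts per gene model and libraries left out. Figures were drawn with matplotlib 3.10.9.

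None of 51290 transcripts and 43008 gene models matched the reference table, so no gene list was tested. Transcripts were named where the study's figures pair them with a name. Of the others, the 2 called higher and the 2 called lower with the largest fitted change were given, each from a different gene model. They were taken from the 97 and 288 with at least 10 counts in each library of the higher group and no overlap between the groups. The members and lists were chosen with earlier results of these data known.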

Additional observations from a re-analysis of the deposited data

Results flagged for a closer look

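The UNC0379 effect at 8 hpa differed between times, by a test of the difference itself, for few transcripts within the regeneration course. There were 1 against the mean of 3 and 12 hpa, 3 against 3 hpa alone and 1 against 12 hpa alone, in edgeR over 5046 transcripts.

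Against 0 hpa the difference was called for 173 transcripts. Among them were 10 that were called in opposite directions, 5 of them higher at 8 hpa and lower at 0 hpa and 5 the reverse. Their effects differed by 1.90 to 5.82 on the log2 scale, a description of transcripts chosen for opposite calls. Without UNC0379 0 hpa replicate 3 and the other 2 libraries that stood apart, 13 transcripts were higher at 8 hpa and lower at 0 hpa and 19 the reverse.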

How the results depend on the processing

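The number called lower at 8 hpa stayed within 1.5 times of 324 under every alternative run (246 to 427). The number called higher did so under all but 2 of them, 230 with only the 6 libraries of 8 hpa and 221 without the 3 libraries that stood apart, a setting chosen after seeing the data as was thinning. The share of lower calls stayed between 70.8% and 76.1% except in those fits (64.2% and 65.9%) and at p under 0.01 with a log2 fold change over 0.58 (69.8%). With each of the 6 libraries left out in turn, 83 to 92 transcripts were higher and 246 to 277 lower. Dickkopf-related protein 3 passed in every setting, with adjusted p up to 0.00192, and Brachyury protein-like and NHL repeat-containing protein 2 in none, the former not being tested with at least 10 counts in 15 libraries.

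The differences between times depended on the setting. Those called against the mean of 3 and 12 hpa, against 3 hpa and against 12 hpa were 20, 11 and 15 with DESeq2, 60, 46 and 50 at the unadjusted limits, and 38, 21 and 30 without the 3 libraries. The first was 2 with limma-voom, 0 with no filter, 3 with at least 10 counts in 15 libraries and 0 with thinned libraries. The last was 2 with upper-quartile normalization, 0 with no filter and 2 with at least 10 counts in 15 libraries. Leaving out any of 18 libraries gave 0 to 2, 1 to 3 and 0 to 1.

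The rising list had a median of -0.41 with DESeq2, -0.62 with no filter and -0.37 at the unadjusted limits. With at least 10 counts in 15 libraries it was -0.35 (20 lower). With the lists of 24 and 3 hpa it was -0.32 and -0.37 (7 higher and 9 lower in the last). Without the 3 libraries it was -0.25 (25 higher and 69 lower of 303), and with 1 library left out -0.66 to -0.56. With no filter 5 of the rising transcripts were higher, and 7 of the falling ones were higher and 5 lower. The falling list had 24 higher and 35 lower at the unadjusted limits, 6 higher and 3 lower with the list of 3 hpa (median 0.26), 41 and 53 without the 3 libraries, and 9 to 14 higher with 1 library left out. Without the 3 libraries 356 transcripts were called at 8 and 12 hpa in the same direction, against 234.

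Transcripts counted under UNC0379 only and in DMSO only were 101 and 148 at 5 counts in total, 6 and 3 at 20 counts, 20 and 17 with thinned libraries, and 5 to 40 and 7 to 58 with a library left out. Each of the 6 libraries moved the second number beyond 1.5 times.

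The deviations of same-numbered libraries at 8 hpa had correlations of 0.15, -0.02 and 0.01. At the other times these ranged from 0.01 to 0.35, and those of differently numbered libraries from -0.46 to 0.37. With so few libraries this cannot show whether the replicate numbers pair them. In fits with a replicate block, 127 were higher and 337 lower when it was shared by all times, and 123 and 318 within each time. The differences from the mean of the neighbours and from 12 hpa were then called for 2 and 3 and for 0 and 0 transcripts.

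Depth limits what can be seen, since 1 count at 8 hpa is worth up to 2.54 CPM. Of 16 loci with names 9 had none at 8 hpa. Of these, 7 had 0 counts in all 30 libraries, and 7 have more than 1 annotated transcript. The cause was not tested.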

Other observations

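Some gene models called at 8 hpa stood beside another called in the same direction in the numbering. Most of the 113 models called higher and the 323 called lower had no next-numbered model that was tested. Of 21 models called higher whose next-numbered model was also tested, the next was higher too in 8 (38.1%), where 2.25% of all tested models were called higher. Of 50 models called lower the next was lower too in 11 (22.0%), against 6.44% of all. Whether the numbers follow the position in the genome is not given in the sources used here. Reads that could belong to several neighbouring models were recorded as ambiguous, and the part of this in the counts was not tested.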
